A study of Mus musculus with 26 samples.

Results

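MSCP5, MSCb1 and B9rassmad are 3 mouse skin carcinoma lines that kept the transcript of E-cadherin and also carried mesenchymal transcripts, and they are called hybrid lines here. They were set against the other 8 carcinoma lines that kept E-cadherin, PDV, PDVC57, B9, B9ras, B9Smad, E4, SN161 and MSCP1, called reference lines. Together they are the 11 of 22 carcinoma lines, among 26 lines in all, in which the probe set of Cdh1 stood at a log2 level of 8 or more. The lowest inside that limit were B9Smad at 8.49 and B9rassmad at 9.13, and the highest outside it was the spindle line D3DP at 3.78. Measured Cdh1 and mesenchymal levels chose the hybrid lines, so every difference between the groups below is a description and no test is read from it.

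Transcripts were measured on Affymetrix M430 2.0 arrays, 1 array per line, in total RNA from log-phase cultures grown in serum. All levels below are log2 values after RMA, a procedure that corrects for background, gives all arrays the same distribution and reduces each probe set to 1 value, and all differences are in log2 units. The labels call the 11 lines squamous carcinoma derived and name no genotype, treatment or age. MSCP5, MSCb1 and MSCP1 came from tumours of Spretus/CBA crosses and SN161 from a Spretus/NIH cross, and no cross is named for B9rassmad or the other 6 lines. Whether sequence differences under the probes lower the signal in lines from a cross was not tested. Spindle pathology is marked absent for MSCP5 and B9rassmad and is not given for MSCb1. For B9Smad the cell type text says spindle while the pathology entry says none. The labels do not say what "ras" and "smad" stand for in the names of the B9 lines, nor whether a line is a single clone. Outside points of reference were 7 spindle carcinoma lines (A5, CarB, CarC, D3, D3DP, H11 and MSN2) and 2 immortalized keratinocyte lines, C5N and NK, of which NK came from a p53 null mouse.

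E-cadherin is the calcium-dependent adhesion molecule of epithelial adherens junctions. In epithelial-mesenchymal transition, transcription factors of the Snail, Zeb, Twist and Prrx families repress junction genes while matrix, contractile and motility genes are switched on. In a partial or hybrid state both programmes are expressed together, and in squamous skin carcinoma the mesenchymal end of the range is the spindle cell tumour. In RNA of a whole culture, both programmes in the same cells cannot be told apart from a mixture of epithelial and mesenchymal cells, nor fewer cells of a type from less RNA per cell.

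Some reference arrays lay close together, which bears on every range drawn from them. PDV and MSCP1 correlated at r = 0.991 over all probe sets, with 153 of 12514 genes 1 log2 unit or more apart, although only MSCP1 is labelled as coming from a cross. PDV and B9ras correlated at 0.990 with 324 such genes, and B9ras and B9 at 0.954 with 1985. B9rassmad lay nearest to B9Smad (r = 0.975, 1160 genes apart). MSCP5 correlated at 0.933 to 0.949 with the reference lines and at 0.935 with MSCb1, from which 2831 genes separated it. MSCP5 and B9rassmad correlated at 0.946, with 2370 genes apart. MSCb1 correlated at 0.932 with B9rassmad (3380 genes apart) and at 0.896 to 0.93 with the reference lines. MSCP5 and B9rassmad thus each correlated highest with a reference line, while MSCb1 correlated highest with MSCP5. Each hybrid line is also described on its own.

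The mean log2 level of 33 epithelial and junction genes was 7.88 in MSCP5, 5.99 in MSCb1 and 6.47 in B9rassmad. The reference lines ran from 6.43 in B9Smad through a median of 7.60 to 9.13 in B9, and the spindle lines from 4.88 to 5.15. MSCP5 sat inside the reference range, B9rassmad at its lower end and MSCb1 between the reference and the spindle lines. B9rassmad was inside the range only through B9Smad, since the next lowest reference line, B9ras, was at 7.37. The mean over 28 mesenchymal genes was 10.79 in MSCP5, 7.88 in MSCb1 and 7.26 in B9rassmad. All 3 lay above the reference lines, which ran from 5.46 to 6.78. MSCP5 and MSCb1 were within the spindle range of 7.30 to 10.86, and B9rassmad was just under it. Over the group the mesenchymal mean was 8.64 ± 1.88 (SD, n = 3) against 6.18 ± 0.39 (n = 8), a difference of 2.46 that was 1.39 without MSCP5. The epithelial mean was 6.78 ± 0.98 (n = 3) against 7.78 ± 0.84 (n = 8). A kept Cdh1 level was a condition for all 11 lines and is no finding here. The wider epithelial list was kept in MSCP5 and was low in MSCb1.

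**Figure D1:**
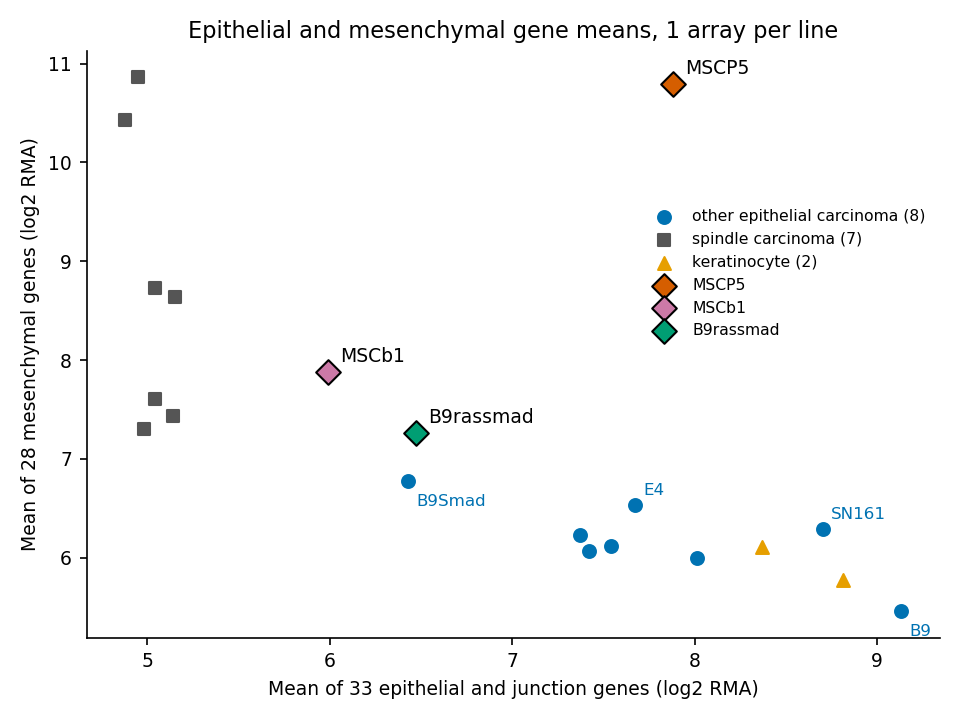
Mean log2 RMA level of 33 epithelial and junction genes (horizontal axis) against that of 28 mesenchymal genes (vertical axis), 1 point per line, for the 3 hybrid lines, 8 other epithelial carcinoma lines, 7 spindle lines and 2 keratinocyte lines. MSCP5 combines an epithelial mean of 7.88 with a mesenchymal mean of 10.79, and MSCb1 and B9rassmad lie between the epithelial and the spindle lines.

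Cdh1 itself stood at 11 in MSCP5, 10.02 in MSCb1 and 9.13 in B9rassmad, against 8.49 to 11.78 in the reference lines with a median of 11.40. The hybrid lines therefore lay within the reference range for the gene that chose them. For MSCb1 and B9rassmad this rested on B9Smad at 8.49 alone. The next lowest reference line stood at 10.58, above both of them. Epcam, an epithelial surface adhesion molecule, was at 10.66 in MSCP5, 7.34 in MSCb1 and 9.04 in B9rassmad. The reference lines ran from 10.51 to 13.12, so that Epcam in MSCb1 and B9rassmad was more than 1 log2 unit under all of them. A second Epcam probe set gave smaller differences in the same direction, -0.44 for MSCb1 and -0.78 for B9rassmad from the reference mean.

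Of the 36 genes on the epithelial and junction list, 34 were measured and 33 passed the filter, which asked for a level above the array median on at least 1 of the 11 lines. Genes were counted as apart when all 3 hybrid lines lay on 1 side of all 8 reference lines and the group means differed by 1 log2 unit or more. By that count 142 of 12514 genes were higher in the hybrid lines (1.13%) and 83 were lower (0.663%), 225 in all (1.8%). On the epithelial list 0 genes were higher and 2 lower, Esrp1 and Lsr. The median difference over the list was -0.93, and over all 12514 genes it was 0.05.

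Esrp1, the splicing regulator that sets epithelial exon choice, was at 9.59 in MSCP5, 4.45 in MSCb1 and 9.40 in B9rassmad. The reference lines ran from 9.67 to 11.15 and the spindle lines from 3.51 to 4.31. MSCP5 and B9rassmad were thus just under the lowest reference line, while MSCb1 was 5.22 log2 units under it and close to the spindle level. Lsr, a receptor at the corners where epithelial cells meet, was at 8.64, 6.93 and 7.83 in MSCP5, MSCb1 and B9rassmad. Its reference levels ran from 8.80 through a median of 10.21 to 12.07, with no overlap. Grhl2, a transcription factor that maintains epithelial junction genes, was at 8.67 in MSCP5 and 7.84 in B9rassmad but at 6.09 in MSCb1, against 8.37 to 9.55 in the reference lines. Other Grhl2 probe sets showed at most 0.58 of that 2.95 log2 unit difference in MSCb1.

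MSCb1 was 1 log2 unit or more below every reference line in 10 of the 33 epithelial genes, against 486 of 12514 genes (3.88%) over the array. Apart from Epcam, Esrp1, Lsr and Grhl2 these were Esrp2, Pard6b, Patj, St14, Spint1 and Krtcap3. St14, a membrane protease of the epithelial barrier, was at 5.58 in MSCb1 against 8.35 to 11.42 in the reference lines and 4.49 to 5.49 in the spindle lines. Its inhibitor Spint1 was at 6.19 against 7.64 to 10.86. Ehf, an epithelial transcription factor, went the other way, at 8.80 in MSCb1 and 9.18 in MSCP5 but 3.54 in B9rassmad, against 3.59 to 7.33 in the reference lines. Ehf was therefore above all reference lines in 2 hybrid lines and at their floor in the third. Cdh3, or P-cadherin, was at 8.77, 9.19 and 8.10 in MSCP5, MSCb1 and B9rassmad, inside the reference range of 6.11 to 9.88, while the spindle lines were at 5.60 to 6.69.

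The sequence just before the start of several of these genes holds the letters that Snail and Zeb factors are known to bind, CAGGTG or its reverse complement CACCTG. Promoter sequences from RefSeq (build GRCm38.p6) were matched by symbol for 24 of the 36 epithelial genes and for 19 mesenchymal genes. Within the 250 bases before a start, 16 of the 24 epithelial genes (66.7%) and 1 of the 19 mesenchymal genes (5.26%) held the motif, read on both strands. Of 27025 genes with a promoter entry, 19.4% did, and of all 32851 promoters 17.2%. Among the genes apart between the groups, 18 of the 68 lower genes with a sequence held it (26.5%) and 15 of the 107 higher genes (14%). The median G and C content was 61.4% in the epithelial and 58.4% in the mesenchymal promoters. A match is a description of the letters and not a binding site. The 1 mesenchymal gene with a match was Pcolce, 238 bases before its start, and Pcolce was also higher in all 3 hybrid lines. Lsr and Ap1m2 are shown as the epithelial promoters with the most matches, 4 each, Epcam with 2 for its low level in MSCb1 and B9rassmad, and Col5a1 with 0 as a matrix gene higher in all 3 lines. They are 250 bases each, 5′ to 3′ on the gene's strand, with matches in capitals. Lsr lies at chr7:30973470-30973719 on the minus strand, Epcam at chr17:87635729-87635978 on the plus strand, Ap1m2 at chr9:21312334-21312583 on the minus strand and Col5a1 at chr2:27886175-27886424 on the plus strand.
Lsr: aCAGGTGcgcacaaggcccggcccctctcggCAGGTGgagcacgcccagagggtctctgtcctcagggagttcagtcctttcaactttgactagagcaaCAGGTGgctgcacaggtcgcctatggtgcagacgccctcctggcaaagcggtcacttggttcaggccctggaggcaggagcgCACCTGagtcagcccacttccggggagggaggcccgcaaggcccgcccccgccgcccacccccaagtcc
Epcam: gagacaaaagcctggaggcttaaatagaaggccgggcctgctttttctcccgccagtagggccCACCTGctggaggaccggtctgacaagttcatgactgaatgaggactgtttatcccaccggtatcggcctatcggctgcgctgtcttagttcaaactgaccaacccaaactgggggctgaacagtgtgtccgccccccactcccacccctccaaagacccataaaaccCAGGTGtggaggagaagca
Ap1m2: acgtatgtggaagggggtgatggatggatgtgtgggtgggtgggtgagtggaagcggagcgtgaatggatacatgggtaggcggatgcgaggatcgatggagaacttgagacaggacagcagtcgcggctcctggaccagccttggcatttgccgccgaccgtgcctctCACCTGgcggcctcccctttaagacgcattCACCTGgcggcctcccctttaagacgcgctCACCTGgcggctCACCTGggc
Col5a1: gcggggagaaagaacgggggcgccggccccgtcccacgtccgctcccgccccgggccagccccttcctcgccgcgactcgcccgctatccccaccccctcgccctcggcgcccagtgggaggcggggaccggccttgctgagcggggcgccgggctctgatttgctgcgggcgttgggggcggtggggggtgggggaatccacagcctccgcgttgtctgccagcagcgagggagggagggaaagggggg

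The Lsr matches begin 249, 219, 151 and 69 bases before the start, those of Epcam 187 and 19, and those of Ap1m2 81, 51, 21 and 9. Ap1m2, the sorting adaptor subunit of polarised epithelial cells, was at 7.66 in MSCP5, 5.54 in MSCb1 and 5.48 in B9rassmad, against 5.87 to 8.33 in the reference lines. MSCb1 and B9rassmad were below all reference lines and at the spindle level of 5.15 to 5.75, and MSCP5 was inside the reference range.

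Among the factors of the transition itself, 19 were listed, 17 measured and 16 passed the filter. Of the 16, 3 were higher in all hybrid lines, Zeb2, Prrx1 and Prrx2, and 0 were lower. Over all genes the shares were 1.13% higher and 0.663% lower. Prrx1, a homeobox factor of mesenchymal cells, was at 8.44 in MSCP5, 8.67 in MSCb1 and 7.69 in B9rassmad, and the reference lines ran from 3.53 through 4.41 to 6.06. No reference line reached a hybrid line, and the group means differed by 3.66 (SE 0.57). Prrx2, its close relative, was at 9.32, 9.45 and 9.56 against 4.51 to 8.26 (difference 2.66, SE 0.64). Zeb2, a repressor of E-cadherin, was at 8.06, 8.04 and 8.66 in MSCP5, MSCb1 and B9rassmad, and the highest reference line, B9Smad, was at 8.02. The Zeb2 gap was therefore small at its narrowest, and the difference of means was 1.90 (SE 0.65).

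Other factors divided the hybrid lines. Zeb1, the other Zeb repressor, was at 8.66 in MSCP5, 9.81 in MSCb1 and 5.52 in B9rassmad, against 5.05 to 7.88 in the reference lines. B9rassmad was inside the reference range while MSCb1 was within the spindle range of 8.83 to 10.82. Snai1 was at 7.31 in MSCP5, 6.38 in MSCb1 and 4.45 in B9rassmad against 4.05 to 5.82. Twist1 was at 5.70, 9.54 and 8.41 in the same order against 5.36 to 7.93, so that it was high in MSCb1 and B9rassmad and not in MSCP5. Twist2 was highest in B9rassmad at 10.71, against 7.17 to 10.30. Snai2, which basal keratinocytes also express, was at 12.01, 11.45 and 10.28 within or near the reference range of 8.22 to 12, and at 12.26 in C5N and 11.91 in NK.

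Of the genes apart between the groups, the 10 with the largest difference upward were Mgst1, Pcolce, Pxylp1, Col5a1, Bmper, Ak1, Prrx1, Il33, Itgb8 and Casp1. Pcolce, which speeds the trimming of fibrillar procollagens, was at 12.42 in MSCP5, 12.51 in MSCb1 and 13.05 in B9rassmad. Its reference levels ran from 4.51 through a median of 7.27 to 11.52 in a wide spread, and its spindle levels from 12.69 to 13.72. The hybrid lines were thus close to the spindle lines for Pcolce, with a difference of means of 5.0 (SE 1.60). Col5a1, a chain of the collagen that nucleates fibrils, was at 10.96, 9.35 and 8.48 in MSCP5, MSCb1 and B9rassmad, against 4.08 to 8.28. Col6a1 and Col6a2, chains of a beaded-filament collagen, also lay above all reference lines, by 0.08 and 0.09 in B9rassmad and by 2.64 and 2.38 in MSCP5. With Pcolce and Col5a1 they made up the 4 of 28 mesenchymal genes that were higher, and 0 were lower. Over all genes the shares were 1.13% and 0.663%. The median difference over the mesenchymal list was 2.66.

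Mgst1, a membrane glutathione transferase, was at 11.71 in MSCP5, 12.20 in MSCb1 and 9.97 in B9rassmad, against 3.65 to 9.74 with a median of 4.88 in the reference lines. Its level in C5N was 11.43, so high Mgst1 also occurred in a keratinocyte line. Itgb8, the integrin chain that binds latent TGF-beta, was at 7.11, 9.13 and 4.53 in MSCP5, MSCb1 and B9rassmad against 3.36 to 3.76, and at 8.88 in C5N and 7.75 in NK. Il33, an alarmin cytokine, was at 9.09 and 8.23 in MSCP5 and MSCb1 but at 5.31 in B9rassmad, next to the highest reference line at 5.17. Casp1, the protease of the inflammasome, was at 7.63, 9.66 and 8.67, and only B9Smad came near it among the reference lines, at 7.56. Bmper, a secreted binder of bone morphogenetic proteins, was at 8.4, 9.22 and 7.55 against 3.20 to 7.05. Ak1, an adenylate kinase, was at 10.28, 9.39 and 7.75 against 4.21 to 6.97. Pxylp1, a phosphatase of proteoglycan synthesis, was at 9.01, 10.20 and 7.62 against 3.53 to 7.36. In Mgst1, Pxylp1, Col5a1, Bmper and Il33, B9rassmad was close above the highest reference line, while MSCP5 and MSCb1 stood farther out.

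Downward, the 10 largest differences were in Mal, Klk10, Cyb561, Shtn1, Esrp1, Slc4a11, Wnt7a, Il23a, Lsr and Btbd11. Mal, a membrane protein of apical transport, was at 6.95 in MSCP5, 6.33 in MSCb1 and 7.74 in B9rassmad, against 9.71 to 11.78 in the reference lines with a median of 11.09. Every hybrid line was 1.97 or more under the lowest reference line, and the spindle lines were at 5.49 to 7.56 (difference of means -3.93, SE 0.43). Slc4a11, a membrane ion transporter, was at 6.46, 6.49 and 6.96 against 8.02 to 11.20, also apart by more than 1 log2 unit in each line. Klk10, a secreted serine protease of the kallikrein family, was at 5.75, 4.47 and 5.67 against 6.61 to 10.10. Cyb561, a transmembrane electron carrier, was at 5.54, 4.57 and 7.77 against 8.58 to 9.70. Wnt7a, a Wnt ligand, was at 7.43, 5.06 and 7.74 against 8.15 to 10.58. A second Wnt7a probe set differed by only 0.03, in the opposite direction. Jag2, a Notch ligand, was at 8.10, 5.95 and 7.91 against 8.68 to 10.81. Klk10, Cyb561, Wnt7a and Jag2 were each lowest in MSCb1.

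**Figure D2:**
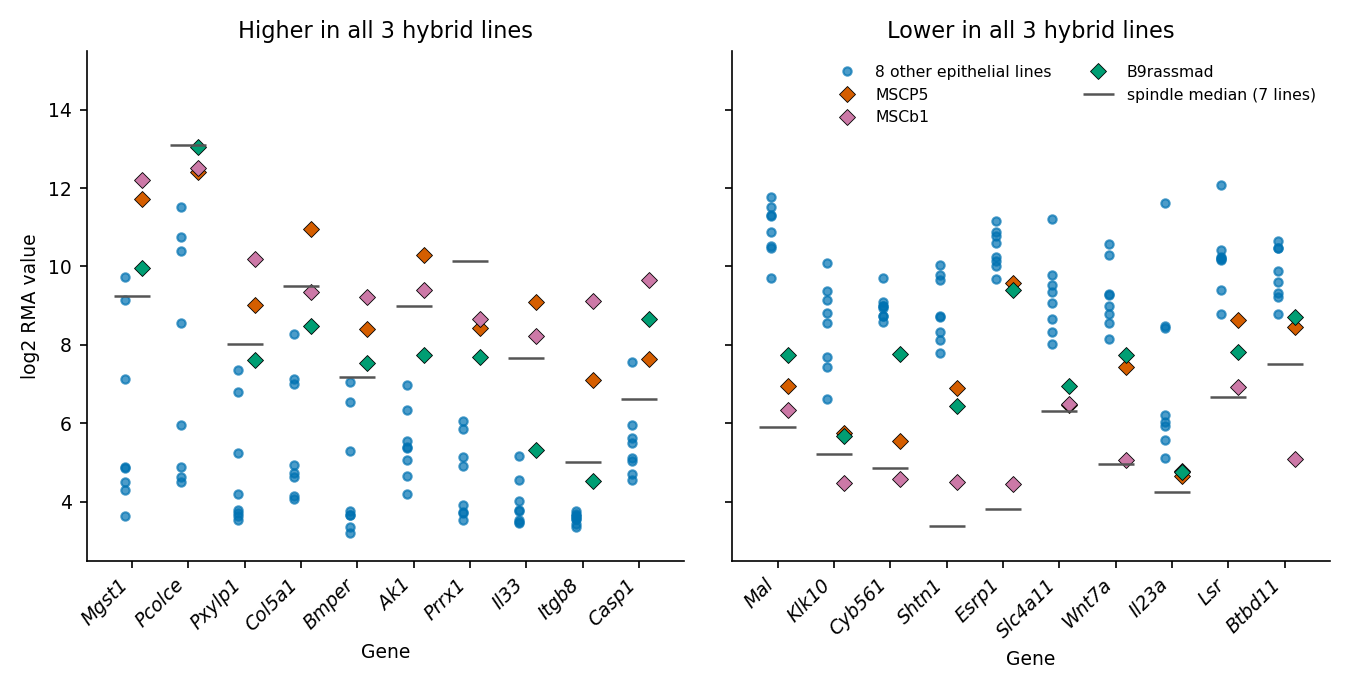
Log2 RMA level of the 10 genes with the largest differences upward (left) and downward (right) among genes in which the 3 hybrid lines do not overlap the 8 other epithelial lines. Each circle is a reference line, each diamond a hybrid line and the horizontal bar the median of 7 spindle lines. Mal shows the widest gap on the right, with every hybrid line at 7.74 or less and every reference line at 9.71 or more.

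A linear model over all 12514 genes (limma) gave 3 genes with an adjusted p under 0.05 (0.024%), 2 higher (0.016%) and 1 lower (0.00799%), and 2097 with an unadjusted p under 0.05. Since the lines were chosen on this contrast, these counts are background and nothing is read from them. The 3 genes were Chst1 and Mal and, named only after its values were seen, Pcdhb16. Chst1, a sulfotransferase of keratan sulfate, was at 6.74 in MSCP5, 8.12 in MSCb1 and 8.74 in B9rassmad, against 4.27 to 5.22 in the reference lines and 9.23 to 10.86 in the spindle lines. Pcdhb16, a clustered protocadherin, was at 6.75, 6.65 and 6.81 against 4.10 to 5.35. The count was 10 without B9Smad, 6 without E4, 5 without B9, 1 without MSCb1, 8 without MSCP5 and 406 without B9rassmad. The genes apart between the groups became 504 higher and 365 lower without B9rassmad, and 268 and 236 without MSCP5. Leaving out the reference line SN161 gave 215 and 125, and leaving out E4 gave 175 and 137.

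The spindle and the keratinocyte lines played no part in that count, and the genes are described in them here. The hybrid lines were chosen for raised mesenchymal transcripts, so that choice itself favours genes that are higher in spindle lines. Over all 12514 genes, the mean of the 7 spindle lines was 1 log2 unit or more above that of the 2 keratinocyte lines in 1306 (10.4%) and below it in 1025 (8.19%). Of the 142 genes higher in the hybrid lines, 67 were higher in the spindle lines by that measure (47.2%) and 3 were lower (2.11%). Of the 83 genes lower in the hybrid lines, 34 were lower in the spindle lines (41%) and 7 were higher (8.43%). Most genes that passed this limit thus ran the same way, which the choice of the lines favours and which is therefore only a description. The single lines gave different shares, whose difference was not tested. Among genes 1 log2 unit or more above all reference lines in MSCP5, 33.9% were higher and 31.1% were lower in spindle than in keratinocyte lines, whereas in B9rassmad the shares were 50.8% and 3.08%.

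Counted singly, MSCP5 had 360 genes (2.88%) 1 log2 unit or more above the highest reference line and 65 (0.519%) below the lowest. MSCb1 had 580 above (4.63%) and 486 below (3.88%), and B9rassmad 65 above (0.519%) and 52 below (0.416%). Each reference line measured against the other 7 gave from 4 above and 1 below in PDV to 311 and 65 in SN161 and 212 and 227 in B9. MSCb1 had more such genes than every reference line in both directions. B9rassmad had fewer above than B9 or SN161 and fewer below than B9. Set against 7 reference lines, as each reference line was, B9rassmad had 66 to 100 above and 53 to 92 below. Its count below was thus not always under the 65 of SN161. A gene can pass the filter through 1 line alone, and with a filter on the mean over the 11 lines MSCP5 had 206 genes above and B9rassmad 41. The counts of list members above the reference lines in single lines share this limit. Without B9Smad the B9rassmad counts were 100 above and 87 below, and without E4 there were 92 below. Without B9, MSCP5 had 107 below. The 3 counts share the same 8 reference lines, so the single-line values are set side by side and not compared for overlap.

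**Figure D3:**
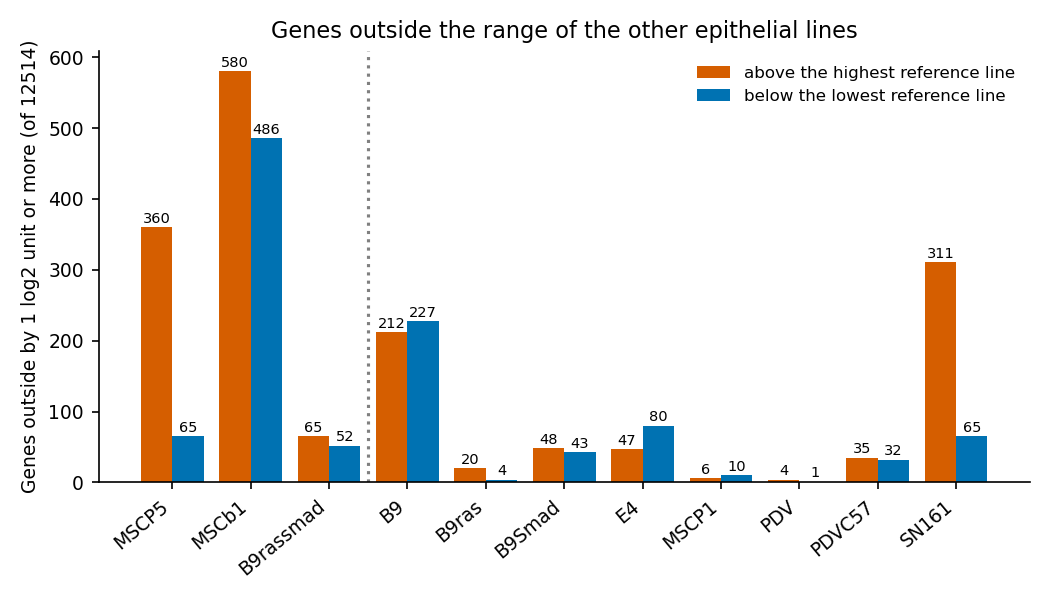
Number of genes, of 12514, that lie 1 log2 unit or more above the highest (orange) or below the lowest (blue) reference line, for each hybrid line against the 8 reference lines and, right of the dotted line, for each reference line against the other 7. MSCb1 has the tallest bars, at 580 and 486, and B9rassmad, at 65 and 52, is lower than SN161 and B9. Against 7 reference lines B9rassmad had 53 to 92 genes below, so its lower blue bar than that of SN161 depends on the number of lines.

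MSCP5 combined high basal and activated epidermal keratins with high fibrillar collagen transcripts. Krt5 and Krt14, the keratin pair of basal epidermis, were at 13.79 and 14.35 in MSCP5, and the reference lines ran from 4.79 to 13.78 and from 7.88 to 14.51. Krt6b and Krt16, keratins of activated epidermis, were at 14.19 and 13.34, above the highest reference levels of 12.23 and 12.31. Of 24 genes of squamous differentiation that passed the filter, 21 lay over the reference mean, as did 6421 of all 12514 genes. Of the 24, 0 were 1 log2 unit or more below all reference lines (0.519% of all genes) and 6 as far above (2.88%). They included Calml3 at 9.11 against at most 5.27, Cnfn at 8.67 against at most 5.11 and Sprr1b at 11.06 against at most 9.72, all cornification genes, with NK at 8.35, 7.46 and 12.55. The desmosomal cadherin Dsg1a was at 8.52 in MSCP5 and 8.36 in NK, against 3.25 to 3.91 in the reference lines. Krt79, a keratin of hair follicle ducts, was at 10.86 in MSCP5 alone, with 4.20 to 4.62 in the reference lines and 6.42 and 5.47 in C5N and NK.

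Of the 12 keratins, 2 were 1 log2 unit or more above and 2 as far below all reference lines in MSCP5. Over all genes the shares were 2.88% and 0.519%. The simple-epithelial keratin Krt7, at 6.80, was inside the reference range of 4.26 to 12.80. Krt19 was at 4.69 and Krt18 at 7.98, under the lowest reference levels of 9.42 and 11.28, and Krt8 was at 4.99 under the lowest of 5.52. In C5N and NK, Krt8 was at 5.04 and 5.03 and Krt19 at 4.59 and 4.37, so MSCP5 was close to the keratinocyte level. Wfdc2, a secreted protease-inhibitor-like protein of glandular epithelia, was at 3.71 in MSCP5 against 11.48 to 13.95 in the reference lines, 4.59 in C5N and 5.10 in NK. The chemokine Cxcl2 was at 3.65 against 6.61 to 11.40, and at 3.48 and 3.4 in C5N and NK. Tnfaip2, a gene induced by tumour necrosis factor, was at 5.21 against 8.79 to 10.52, and at 5.30 and 4.91 in C5N and NK. For Krt8, Krt19, Wfdc2, Cxcl2 and Tnfaip2 the MSCP5 level lay under the reference range and near both keratinocyte lines, while Krt18 stood at 9.45 in C5N and 3.88 in NK.

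Among mesenchymal genes, fibrillar collagens and their modifiers stood out in MSCP5. Of 28 mesenchymal genes, 19 were 1 log2 unit or more above every reference line and 0 as far below. Over all genes the shares were 2.88% and 0.519%. Col1a1, a chain of type I collagen, was at 12.65 in MSCP5 and at 3.57 to 4.08 in the reference lines, with 3.84 in MSCb1, 3.76 in B9rassmad and a spindle range of 3.79 to 10.72. MSCP5 was thus the only one of the 11 lines with Col1a1 above the array median, and Col1a1 passed the filter through MSCP5 alone. Mesenchymal levels also chose this line, so the counts of mesenchymal genes and collagen chains here are only a description. Col1a2 was at 13.47 against 4.94 to 5.85, and Col3a1, the type III collagen chain, at 12.25 against 4.43 to 7.43. Lox, which crosslinks collagen, was at 11.09 against 3.80 to 4.27 and also above the highest spindle line at 7.55. Postn, a matricellular protein, was at 10.54 against 4.11 to 5.84, and Bgn, a small proteoglycan, at 12.81 against 4.96 to 6.31. Of 19 collagen chains that passed the filter, 12 were 1 log2 unit or more above all reference lines in MSCP5, 3 in MSCb1 and 1 in B9rassmad. Over all genes the shares were 2.88%, 4.63% and 0.519% in that order.

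Some smooth muscle and pericyte genes were high in MSCP5 and MSCb1. Others were not, and in MSCP5 Cnn1 at 4.21, Des at 5.84 and Lmod1 at 5.46 lay inside the reference ranges. Acta2, smooth muscle actin, was at 14.27 in MSCP5, 14.21 in MSCb1 and 9.11 in B9rassmad, against 5.74 to 9.75 in the reference lines and 6.97 to 13.68 in the spindle lines. Myl9, a myosin light chain, was at 11.36 and 11.53 in MSCP5 and MSCb1 but 3.96 in B9rassmad, against 3.52 to 4.39. Tagln, an actin-binding protein of smooth muscle, was at 11.42, 9.05 and 5.12 in the same order against 4.70 to 5.55. Pdgfrb, the growth factor receptor of pericytes and fibroblasts, was at 11.48, 10.15 and 5.63 against 3.08 to 5.76. MSCP5 and MSCb1 therefore shared high levels of these 4 genes, and B9rassmad lay inside the reference range for each. Cdh2, or N-cadherin, was at 9.53 in MSCP5 but 4.29 and 4.95 in the others, and the reference line B9 reached 9.52. Cdh11, a cadherin of mesenchymal cells, was at 9.82 in MSCP5, 3.09 in MSCb1 and 7.82 in B9rassmad, against 3.13 to 3.42 in the reference lines and 8.28 in NK.

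Vim and Fn1, the intermediate filament vimentin and fibronectin, did not set the hybrid lines apart. Vim was at 13.74, 14.14 and 13.80 in MSCP5, MSCb1 and B9rassmad, and the reference lines ran from 5.14 in B9 to 13.91 in B9Smad with a median of 12.76. Fn1 was at 12.88, 13.86 and 12.85 against 6.51 to 13.41. For both genes every reference line but B9 was above 11, so these lines carried mesenchymal filament and matrix transcripts without being in the hybrid group. Sparc, a collagen-binding glycoprotein, was at 13.12, 11.35 and 11.10 against 3.88 to 12.38.

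**Figure D4:**
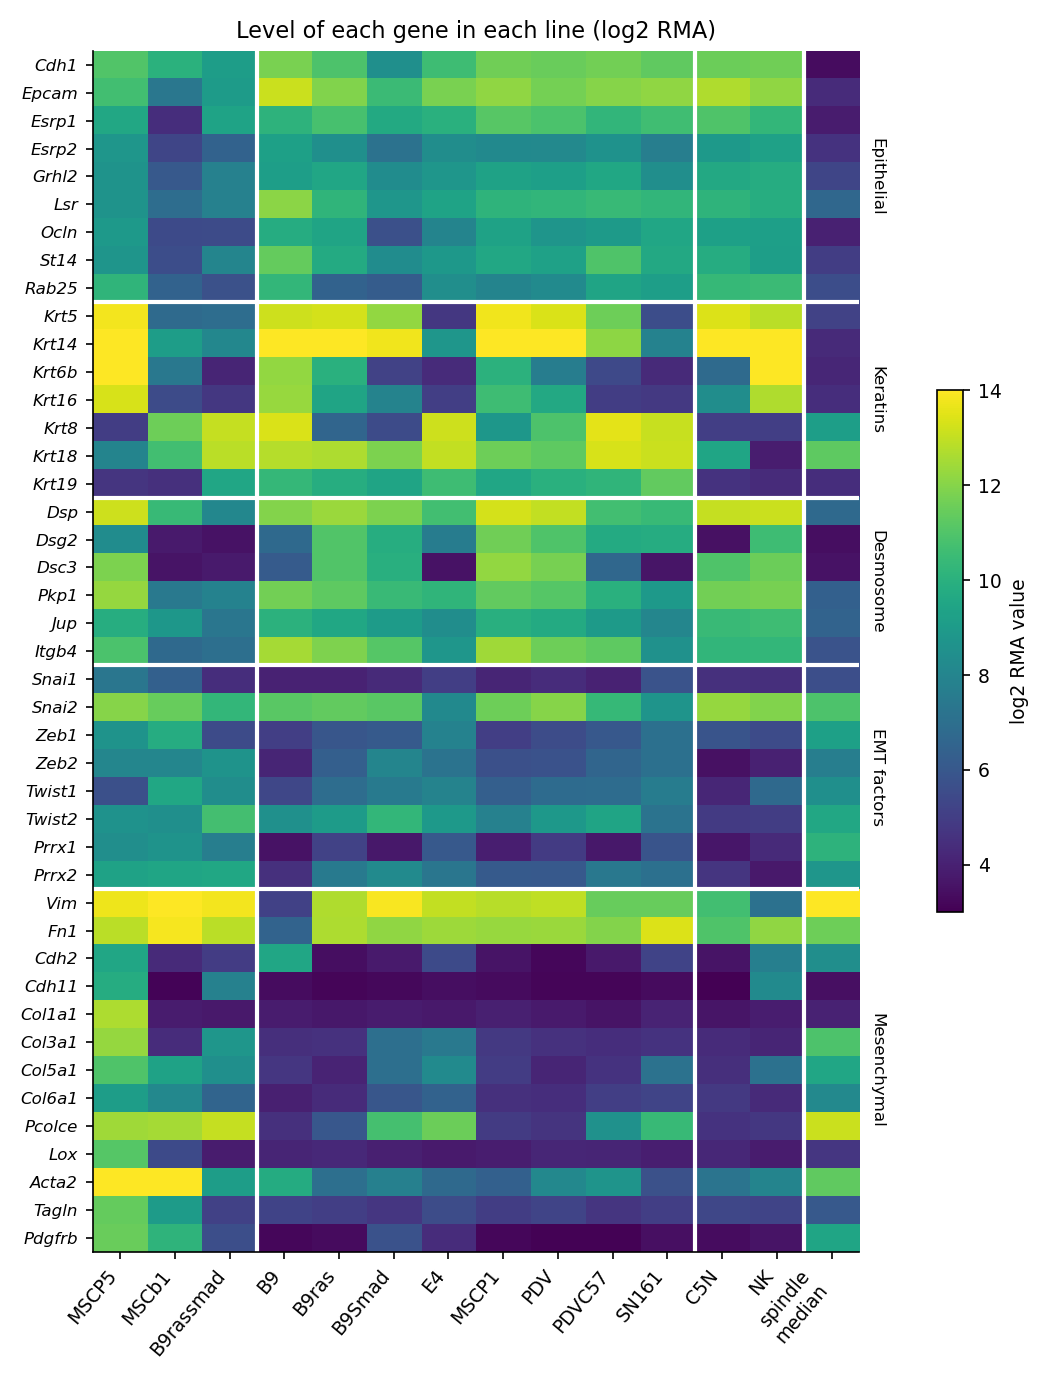
Log2 RMA level (colour) of epithelial, keratin, desmosome, transition factor and mesenchymal genes (rows) in the 3 hybrid lines, the 8 reference lines, the keratinocyte lines C5N and NK, and as the median of 7 spindle lines (columns). MSCP5 is bright in the rows of Krt5, Krt14, Col1a1 and Acta2 at once, at 13.79, 14.35, 12.65 and 14.27, and MSCb1 is dark at Esrp1, at 4.45.

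MSCb1 kept Cdh1 but had low levels of several desmosome and hemidesmosome genes. Of 12 keratins that passed the filter, 1 was 1 log2 unit or more above all reference lines in MSCb1, Krt15 at 8.72 against 4.62 to 7.67, and 1 as far below, Krt19. Over all genes the shares were 4.63% and 3.88%. Krt19 was at 4.51, while Krt5 at 6.82 and Krt14 at 9.14 lay inside the reference range, since SN161 and E4 were low too, at 5.60 and 4.79 for Krt5. Of 14 desmosome and plakin genes that passed the filter, 5 were 1 log2 unit or more below all reference lines in MSCb1, 3 in B9rassmad and 0 in MSCP5. Over all genes the shares were 3.88%, 0.416% and 0.519% in that order. Jup and Evpl in B9rassmad were under the lowest reference line by less than that margin. Dsg2, a desmosomal cadherin, was at 3.79 in MSCb1 and 3.55 in B9rassmad against 8.35 in MSCP5 and 6.75 to 11.61 in the reference lines. The Dsg2 probe set with the smallest difference lay -0.71 in MSCb1 and -0.88 in B9rassmad from the reference mean, so the size depends on the probe set. Lamb3, a chain of the epidermal basement membrane laminin, was at 5.82 in MSCb1, and Itgb4, the hemidesmosome integrin chain, at 6.75. Their lowest reference levels were 8.01 and 8.56. Mpzl2, an epithelial adhesion protein, was at 4.29 against 8.92 to 11.22, and Serpinb5, or maspin, at 4.82 against 8.56 to 11. For Esrp1, Mpzl2 and Serpinb5 the MSCb1 level was within or close to the spindle range, which ended at 4.31, 4.53 and 4.92.

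Several genes far above the reference lines in MSCb1 are described here. Selenop, the plasma selenium carrier, was at 11.79 in MSCb1 and 8.15 in MSCP5 against 3.41 to 4.61, and Mgp, an inhibitor of matrix calcification, at 12.26 against 3.99 to 6.51. Rbp4, the retinol carrier, was at 10.77 and the chemokine Cxcl15 at 10.66, and all reference and spindle lines stayed at or below 5.63 for both. Dkk3, a secreted Dickkopf-family protein, was at 10.73 against 4.17 to 4.88, with spindle lines from 4.43 to 11.09. Mmp13, a collagenase, was at 12.05 in MSCb1 against 3.47 to 9.17 in the reference lines and at most 7.49 in the spindle lines. Lpl, lipoprotein lipase, was at 11.31 against 3.93 to 7.61. Dcn, the fibroblast proteoglycan decorin, was at 8.54 in MSCb1 and 7.0 in B9rassmad but 4.72 in MSCP5, against 4.33 to 5.27. Of the fibrillar collagen chains, Col5a1 was high in MSCb1, as given above, while Col1a1 was at 3.84, Col3a1 at 4.41 and Col1a2 at 5.51 inside or just under the reference ranges.

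MSCb1 also differed from the reference lines in TGF-beta, interferon, Hox and cell cycle genes. Its list means for Hox and cell cycle genes, 7.22 and 8.95, lay within the spindle ranges of 6.05 to 7.23 and 7.55 to 10.53. Its interferon mean of 8.39 was just above the spindle range of 6.31 to 8.25. The TGF-beta pathway mean, at 9.36, lay above the spindle range of 8.07 to 8.61. Of 34 genes of the TGF-beta pathway, all of which passed the filter, 7 were 1 log2 unit or more above and 1 as far below all reference lines in MSCb1. By the same margin there were 3 and 0 in MSCP5, and 0 and 0 in B9rassmad. Over all genes the shares above and below were 4.63% and 3.88% in MSCb1. They were 2.88% and 0.519% in MSCP5, and 0.519% and 0.416% in B9rassmad. Ltbp2, a latent TGF-beta binding protein, was at 12.96 in MSCb1 against 5.93 to 8.53, and the co-receptor Tgfbr3 at 12.16 against 5.92 to 8.71. The ligands Tgfb3 and Bmp4 were at 9.72 and 9.70 against at most 7.5 and 6.74. Tgfb2, a further ligand, was at 9.73 in MSCP5 and 6.65 in MSCb1 against 3.54 to 5.12. Of the receptors, Tgfbr1 was at 9.39, 9.77 and 8.98 in MSCP5, MSCb1 and B9rassmad, all under the lowest reference line at 9.88. It was the only member of the list apart between the groups by 1 log2 unit, beside 1.8% of all genes. Smad4, the shared signal carrier, was at 10.98, 10.91 and 10.88 and above every reference line, which ran from 9.97 to 10.42, by a difference of 0.69 (SE 0.14) that is under the limit of 1 log2 unit. Id3, a target of this signalling, was at 11.79 in MSCb1 and 10.02 in MSCP5 against 6.92 to 9.86.

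Of 20 interferon and antigen-processing genes that passed the filter, 10 were 1 log2 unit or more above all reference lines in MSCb1, 0 in MSCP5 and 1 in B9rassmad. Over all genes the shares were 4.63%, 2.88% and 0.519% in that order. Psmb8 and Psmb9, subunits of the immunoproteasome, were at 9.43 and 9.33 in MSCb1 against at most 4.93 and 5.38, and Gbp2, an interferon-induced GTPase, at 10.07 against at most 6.68. Usp18 and Ifit3, interferon-stimulated genes, were at 7.73 and 8.25 against at most 5.89 and 5.73. Of 9 markers of immune cells measured, only 4 passed the filter, and Ptprc, the pan-leukocyte marker, did not. Of those 4, 0 were outside the reference range by 1 log2 unit in any hybrid line. The source of the interferon transcripts was not tested. Among 22 Hox and positional genes, 6 were 1 log2 unit or more above all reference lines in MSCb1, beside 4.63% of all genes. The other hybrid lines had 0. Hoxa5 was at 11.44 in MSCb1 and 9.61 in B9rassmad against 7.71 to 9.04 and Hoxa10 was at 9.09 in MSCb1 against 3.58 to 6.66. Among 21 cell cycle genes, 7 were 1 log2 unit or more below all reference lines in MSCb1, beside 3.88% of all genes. MSCP5 and B9rassmad had 0. Mki67, the proliferation antigen, was at 9.60 in MSCb1, 11.59 in MSCP5 and 11.54 in B9rassmad against 10.69 to 12.35. Aurkb, a mitotic kinase, was at 6.4, 8.15 and 9.14 in that order against 7.71 to 9.31. Whether growth rate differed between the cultures was not tested.

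B9rassmad showed the smallest shift, and it can be set beside the 3 other lines that share its name, B9, B9ras and B9Smad, with 1 array each. It had 243 genes (1.94%) 1 log2 unit or more above the highest of those 3 and 220 (1.76%) below the lowest. Pcolce was at 4.51 in B9, 5.97 in B9ras, 10.76 in B9Smad and 13.05 in B9rassmad. Prrx2 was at 4.51, 7.5, 8.26 and 9.56 and Zeb2 at 4.13, 6.34, 8.02 and 8.66 in the same order, so for these 3 genes B9Smad lay between B9ras and B9rassmad. Col3a1 was at 4.49, 4.57, 7.02 and 8.80, which is the same order. For other genes B9Smad was lower than B9ras or little different from it. Cdh11 was at 3.37, 3.17, 3.23 and 7.82, and Chst1 at 4.73, 4.77, 4.27 and 8.74. Cntn3, a neuronal adhesion protein of the contactin family, was at 3.26, 3.36, 3.09 and 7.75, and no other hybrid or spindle line exceeded 3.69. Scg5, a chaperone of the secretory pathway, was at 3.27, 3.23, 5.32 and 8.95, with B9Smad in between.

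Several genes of adhesion to the basement membrane and between cells were lower in B9rassmad. Itgb4 was at 12.53 in B9, 11.87 in B9ras, 11.11 in B9Smad and 7.01 in B9rassmad, against 8.56 in the lowest of the 8 reference lines. Dsp, the desmosomal linker to keratin filaments, was at 11.98, 12.36, 11.85 and 8.08 in the same order, and Pkp1, a desmosomal plaque protein, at 11.64, 11.27, 10.46 and 7.86. Lama3, the laminin chain partner of Lamb3, was at 7.39 in B9rassmad against 8.41 to 13.67 in the 8 reference lines, 11.88 in MSCP5 and 12.13 in MSCb1. Krt5 was at 13.17, 13.28, 12.22 and 6.95 and Krt14 at 14.09, 14.15, 13.75 and 8.11 in B9, B9ras, B9Smad and B9rassmad. These keratins separated B9rassmad from the B9 lines but not from all reference lines, since SN161 and E4 stood at 7.88 and 8.77 for Krt14. Krt8, Krt18 and Krt19 were within the range of the 8 reference lines in B9rassmad, at 13.02, 12.87 and 9.49. Among the B9 lines, Krt8 was at 13.37 in B9 but at 6.59 in B9ras and 5.52 in B9Smad. Krt7, at 10.14 in B9rassmad, was at 5.89, 4.69 and 4.26 in B9, B9ras and B9Smad. Galnt3, which starts mucin-type sugar chains, was at 5.11 in B9rassmad against 7.91 to 10.41, but 2 other probe sets differed from the reference mean by only -0.73 and -0.68. The chemokines Cxcl1, Cxcl2 and Cxcl5 were at 7.52, 4.71 and 8.62 in B9rassmad, under the lowest reference levels of 9.49, 6.61 and 10.87, while Cxcl5 was at 11.69 in MSCP5 and 13.31 in MSCb1.

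**Figure D5:**
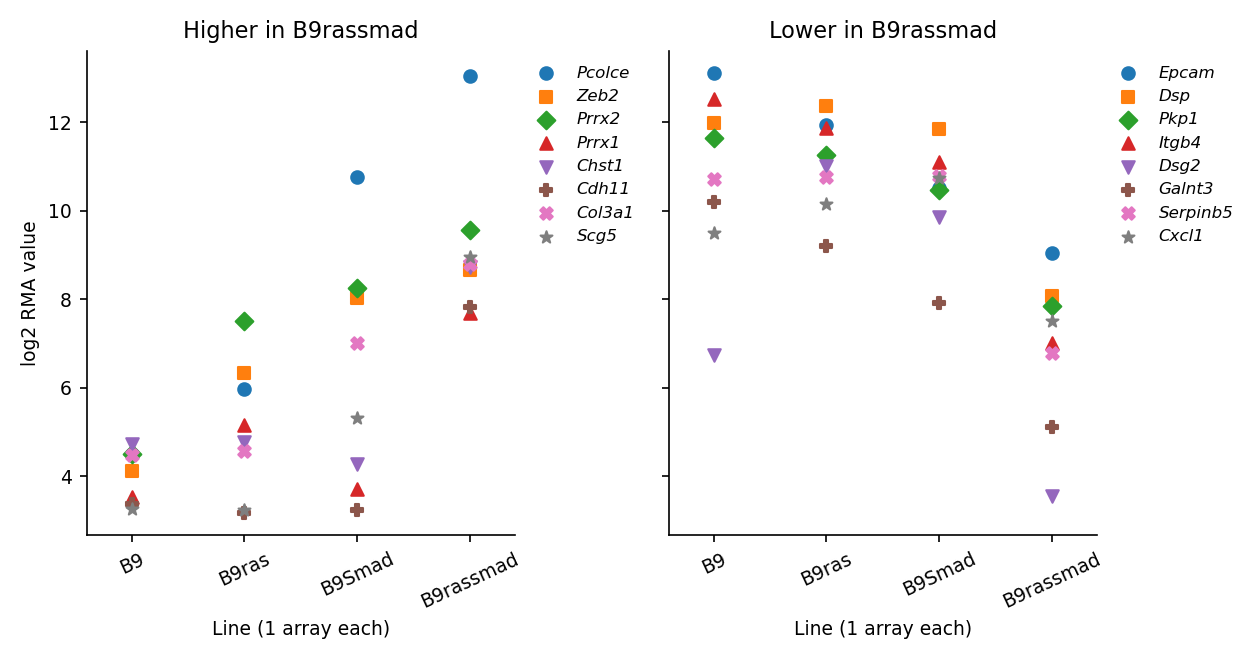
Log2 RMA level of 8 genes that were higher (left) and 8 that were lower (right) in B9rassmad than in B9, B9ras and B9Smad, with 1 array per line and 1 marker per gene. Pcolce is at 4.51, 5.97, 10.76 and 13.05 from left to right, and Dsg2 is at 3.55 in B9rassmad.

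Members of other signalling lists that were apart between all hybrid and all reference lines are given with their counts, against 1.8% of all genes. Of 20 Wnt and Notch genes that passed the filter, 0 were higher and 2 lower, Wnt7a and Jag2, described above. Of 20 receptor kinases that passed the filter, 1 was higher, Fgfr1 at 9.43, 9.61 and 9.30 in MSCP5, MSCb1 and B9rassmad against 6.0 to 8.98, and 1 lower, Epha2 at 9.04, 8.79 and 9.16 against 9.41 to 11.57. Another Fgfr1 probe set differed by 0.26 between the group means against 1.74 for the one used. Of 13 splicing regulators, 1 was lower, Esrp1, and 1 higher, Rbfox2, a regulator of mesenchymal exon choice, at 9.53, 9.37 and 8.63 against 7.35 to 8.59. Ereg, an epidermal growth factor receptor ligand, was the 1 of 22 Ras and MAPK feedback genes that was apart, at 8.86, 7.78 and 8.45 against 9.03 to 11.57. Wnt5a, a non-canonical Wnt ligand, was at 8.75 and 9.31 in MSCP5 and MSCb1 but 7.44 in B9rassmad, just inside the reference range of 3.86 to 7.48. On the list of genes tied to hybrid states, 25 passed the filter and 1 was apart, Prrg4 at 5.97, 6.05 and 5.66 against 6.33 to 8.67. Counted singly, 3 of the 25 were 1 log2 unit or more above all reference lines in MSCP5, 1 in MSCb1 and 0 in B9rassmad. Over all genes the shares that far above were 2.88%, 4.63% and 0.519% in that order. As far below were 0, 3 and 2, beside 0.519%, 3.88% and 0.416% of all genes. The phenotypic stability factors on the list divided. Ovol2 and Numb were within the reference ranges in all 3 lines, except that Numb in MSCP5, at 7.87, lay 0.02 under the lowest at 7.89. Grhl2 was under the lowest reference line in MSCb1 and B9rassmad but not in MSCP5, as given above.

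Markers of other cell types were read beside these results, since fibroblasts are known to express the same collagens. Of 10 fibroblast markers, 6 passed the filter, and their mean level was 9.31 in MSCP5, 5.74 to 6.13 in the other hybrid lines and 4.57 to 5.37 in the reference lines. In MSCP5, 4 of the 6 were 1 log2 unit or more above all reference lines, but Pdgfra at 5.07 and Dcn at 4.72 were inside the reference ranges, which began at 5.06 and 4.33, and Lum, Thy1, Dpt and Pi16 did not pass. Of 10 myofibroblast and pericyte markers, 8 passed, and 4 were 1 log2 unit or more above all reference lines in MSCP5, 4 in MSCb1 and 0 in B9rassmad, with Myh11 and Rgs5 not passing. Over all genes the shares that far above were 2.88%, 4.63% and 0.519% in MSCP5, MSCb1 and B9rassmad. The keratinocyte marker mean was 11.90 in MSCP5 and 7.60 to 8.09 in MSCb1 and B9rassmad, against 8.28 to 12.53. Of 10 endothelial markers 6 passed, of 8 melanocyte markers 4, and of 7 Schwann markers 5 were measured and 4 passed, and 0 of these were outside the reference range by 1 log2 unit in any hybrid line. Of 5 adipocyte markers measured, 4 passed, and Lpl and Pparg were 1 log2 unit or more above all reference lines in MSCb1. What part other cells in the cultures had in these levels was not tested.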

How the data were processed

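Expression was measured in 26 mouse skin cell lines, 1 array each. The authors deposited log2 expression, which the submitters' processing notes credit to RMA (version not given in the sources used here), and no scanner files were used. Of 45037 probe sets, the platform annotation pairs 34945 with 1 gene symbol, 932 with several and 9160 with none, and only the first were named, with symbols updated through the gene identifier for 34741. For each of 18193 genes the probe set brightest on average across the 26 arrays was taken, and the 12514 above the array median (5.04 to 5.15) on at least 1 of the 11 lines compared were kept. Differences, standard errors and adjusted p-values came from limma 3.58.1 in R 4.3.3, adjusted by Benjamini-Hochberg over all 12514 genes and tested on simulated data. Replicates are lines, and nothing in the labels says that any line was cultured more than once, so errors measure the spread between lines, and the number of arrays limits their precision. Genes were named as the 10 farthest apart in each direction for the group and for each line, and from 32 lists with 646 entries, of which 39 were not measured, all members for the main lists and at most 6 for the others. The members, lists and rules were chosen with earlier results of these data known. Alternatives were the choice of probe set, the filter, array centring, the lines entered, averaging or blocking lines of like name, the cross as a covariate and the estimate of spread. One keratinocyte line whose label and genotype entry conflict was not used.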

Additional observations from a re-analysis of the deposited data

Results flagged for a closer look

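The reference lines were checked for the genes and list means named, and the spindle lines for the epithelial and mesenchymal means. Of 146 such sets, 18 held 1 line far from the rest of its group, and chance gives about 1 in 20. B9 was that line in 7. It was low for Vim at 5.14 (nearest reference line 11.45), for Fn1 at 6.51 (11.97) and for Sparc at 3.88 (10.27). It was high for Cdh2 at 9.52 (5.45), Aldh1a1 at 10.44 (5.37), Postn at 5.84 (4.69) and Numb at 8.66 (8.20). SN161 was high for Lpl at 7.61 (4.77), Il18 at 7.35 (5.99), Usp18 at 5.89 (4.14) and Ifit3 at 5.73 (4.76), and low for Aurkb at 7.71 (8.62). B9Smad was low for Cdh1 at 8.49 (10.58). It was high for Scg5 at 5.32 (3.57) and Casp1 at 7.56 (5.97), both of which were high in B9rassmad too, at 8.95 and 8.67. B9ras was high for Mgp at 6.51 (4.97) and Calml3 at 5.27 (4.02), and MSCP1 for Cyb561 at 9.70 (9.09).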

How the results depend on the processing

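Of the 3 genes called by limma at an adjusted p under 0.05, the count became 22 with the probe set of largest SD, 37 with the mean of all probe sets, 6 with no filter, 204 with the spread shared by all groups, 10 without B9Smad, 0 with name families averaged (1523 at an unadjusted p under 0.05) and, in an alternative chosen after seeing the data, 1 with close arrays averaged. Leaving out 1 line gave 1 (MSCb1 left out) to 406 (B9rassmad left out). Genes apart between the groups numbered 222 higher and 139 lower with name families averaged, and 136 to 504 higher and 81 to 365 lower with 1 line left out. MSCP5 had 206 genes above with the filter on the mean, and 65 to 107 below with 1 line left out. B9rassmad had 41 above with that filter, 100 above and 87 below without B9Smad, 109 and 101 with close arrays averaged, and 66 to 100 above and 53 to 92 below with 1 line left out. The epithelial mean of MSCP5 minus the reference mean, 0.10, was -0.10 without B9Smad and -0.26 with close arrays averaged (-0.10 to 0.29 with 1 line left out). The mesenchymal difference of 2.46 was 2.02 with the mean of all probe sets (3.95 against 4.6 for MSCP5) and 1.39 to 3.15 with 1 line left out. Cdh2 between the groups, 1.51, ran from -0.12 (without MSCP5) to 2.5. Cdh3 between the groups, 0.03, was -0.10 with the mean of all probe sets, -0.05 without B9Smad and -0.33 to 0.32 with 1 line left out, Twist2, 0.49, ran from -0.23 (without B9rassmad) to 0.89, and Numb, -0.09, from -0.19 to 0.01 (without MSCP5). A further 43 values of single genes moved by more than the spread between lines. The causes were not tested. No paired analysis was possible because the replicate numbers only name lines in accession order. Signal near the array median limits what can be said of low genes.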

Other observations

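Glutathione and xenobiotic genes also differed among the hybrid lines. Of 19 that passed the filter, 4 were 1 log2 unit or more above all reference lines in MSCP5, 5 in MSCb1 and 0 in B9rassmad. Over all genes the shares that far above were 2.88%, 4.63% and 0.519% in that order. As far below all reference lines were 0 in MSCP5, 1 in MSCb1 and 1 in B9rassmad, beside 0.519%, 3.88% and 0.416% of all genes. Gstm2, a glutathione transferase, was at 8.26 in MSCP5, 10.43 in MSCb1 and 3.66 in B9rassmad against 3.47 to 6.47. Akr1b8, an aldo-keto reductase, was at 11.91, 13.39 and 10.13 against 8.21 to 12.21. Aldh1a1, a retinaldehyde dehydrogenase, was at 12.01 in MSCP5, 10.16 in MSCb1 and 9.13 in B9rassmad, and the reference lines had a median of 3.70 but reached 10.44. Cxcl12, a stromal chemokine, was at 9.02 and 8.91 in MSCP5 and MSCb1 and at 4.35 in B9rassmad against 4.21 to 4.95. Il18, a cytokine of keratinocytes, was at 10.71, 10.26 and 5.92 against 5.35 to 7.35, and at 8.77 in C5N and 8.87 in NK. For Gstm2, Cxcl12 and Il18, MSCP5 and MSCb1 were above all reference lines and B9rassmad was within their range.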
